A study of Mus musculus with 3 samples.

Results

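The mitochondrial genome transcripts described here are the 36 rows of the single-cell count table whose names place them on chromosome M, out of 14355 rows for mouse genes. They comprise 13 mRNAs, 2 ribosomal RNAs (rRNAs) and 21 transfer RNAs (tRNAs). Of the 37 genes annotated on chromosome M, mt-Ty, the tRNA for tyrosine at chrM:5260-5326 on the minus strand, is the one without a row. Membership rests on the chromosome alone, and no measured value chose the rows.

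The cells were naive CD4 T cells, taken fresh from spleen and lymph node of C57BL/6 mice aged 8 to 12 weeks, with both sexes pooled. The sort took live singlets that carried TCRb, CD4, CD62L and CD5 on their surface and lacked CD8, CD25 and CD44. Cells over the whole range of CD5, a surface protein whose level on naive T cells follows the strength of self-reactive T cell receptor signals, went 1 per well into 3 plates of 384 wells. The authors placed each cell in a Low, Middle or High CD5 class from its index-sort fluorescence. Libraries were made by SORT-seq, in which a 24-base poly-T primer with a 6-base unique molecular identifier (UMI) captures the tail of an RNA, so each captured molecule gives 1 tag. All cells had the same genotype, and the CD5 class was the single contrast in the design.

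The mouse mitochondrial genome is a small circle transcribed from both strands into long precursors. These are cut mostly at the tRNAs that lie between the other genes, and the released mRNAs receive short poly(A) tails inside the organelle. The mRNAs encode subunits of respiratory chain complexes I, III and IV and of the ATP synthase, which are translated by a mitochondrial ribosome built on the 2 rRNAs and on proteins encoded in the nucleus. A quiescent naive T cell draws its ATP largely from this chain.

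Because the primer anneals to a tail, coding ends of these mRNAs and A-rich stretches within the rRNAs are given here. A coding end need not lie next to the tail. No gene of the plus strand is annotated between the end of mtNd5, at chrM:13565, and the start of mtCytb, at chrM:14145. Where the tails of mtNd5 and mtNd6 lie was not analysed here, so their rows may miss tags that fall beyond the coding sequence. The coding ends are shown for the most abundant row, for the 3 mRNAs whose coding sequence stops at a lone T, and for the facing genes mtNd5 and mtNd6. Capitals mark the stop codon, or the T that the poly(A) tail completes to a stop codon. All are from the GENCODE M21 transcripts on GRCm38, the assembly of mm10, written 5′ to 3′ on the strand of the gene.
mtAtp6, chrM:8578-8607, plus strand: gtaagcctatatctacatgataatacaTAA
mtCo3, chrM:9361-9390, plus strand: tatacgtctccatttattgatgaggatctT
mtNd4, chrM:11515-11544, plus strand: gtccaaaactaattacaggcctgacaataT
mtCytb, chrM:15259-15288, plus strand: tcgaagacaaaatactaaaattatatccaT
mtNd5, chrM:13536-13565, plus strand: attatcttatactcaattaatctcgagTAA
mtNd6, chrM:13552-13581, minus strand: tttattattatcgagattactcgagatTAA
Of the 13 coding sequences, 8 ended in TAA, 2 in TAG (mtNd1 and mtNd2) and 3 in the lone T. The ends of mtNd5 and mtNd6 overlap on opposite strands. Whether reads were counted by strand was not given in the sources used here, so reads in that overlap cannot be assigned to either gene with certainty.

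Each of 2 pairs of reading frames overlaps and lies on a shared mRNA, so the rows of such a pair count tags of the same mRNA and are not levels of separate transcripts. The overlap of mtAtp8 and mtAtp6 is shown with the start codon of mtAtp6 and the stop codon of mtAtp8 in capitals, and the junction of mtNd4l and mtNd4 with the shared bases in capitals.
mtAtp8/mtAtp6, chrM:7927-7969, plus strand: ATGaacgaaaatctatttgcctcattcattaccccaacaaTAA
mtNd4l/mtNd4, chrM:10159-10188, plus strand: ctactacaATGCTAAaaattattcttccct
In the rRNAs, which carry short tails at most, the 15 bases richest in A are shown in capitals with their flanks. The window held 11 A in mt-Rnr1 and 13 A in mt-Rnr2.
mt-Rnr1, chrM:356-400, plus strand: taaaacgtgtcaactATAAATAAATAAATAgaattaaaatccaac
mt-Rnr2, chrM:1473-1517, plus strand: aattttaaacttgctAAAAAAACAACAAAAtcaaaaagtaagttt
Runs of at least 6 A occurred 4 times in mt-Rnr2, 3 times in mtNd2, 2 times each in mtNd4 and mtNd5, 1 time each in mtNd1 and mtCo1, and 0 times in mt-Rnr1 and the other mRNAs. Where a tag began within a transcript was not analysed here.

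The table held 172, 201 and 324 cells in plates 1, 2 and 3, with 726230, 1113632 and 1404157 UMIs. The median cell held 3749, 5449 and 3952 UMIs. Cells are named by well, and 40 of the 372 well numbers in use occurred in all 3 plates. Counting those 40, plates 1 and 2 shared 42 well numbers, plates 1 and 3 shared 150, and plates 2 and 3 shared 173. Why the pairs of plates differed was not tested. A cell is therefore identified by its well and its plate together. Cd4 was detected in 95.7% of cells and Cd3e in 80.6%, while the summed markers of CD8 T cells, B cells, NK cells and erythroid cells came to 48, 57, 106 and 5 UMIs. The 3 myeloid markers with a row came to 809 UMIs, with at least 1 UMI in 51.65% of cells. They made up 0.0164%, 0.0259% and 0.021% of UMIs in the Low and 0.0395%, 0.0226% and 0.0189% in the High CD5 class of plates 1, 2 and 3, and their part in the results was not tested. The 7 stress and dissociation markers, among them Fos, Jun and Hspa8, had at least 1 UMI in 97.56% of cells. They made up 0.2024%, 0.2187% and 0.3512% of UMIs in plates 1, 2 and 3, and their part was not tested either. Plate 2 stood apart from its CD5 labels. Cd5 mRNA was at 259.4 CPM, a row's UMIs scaled to all UMIs of the sum, in its Low and 281.9 in its High class, against 96.62 and 637.5 in plate 1 and 49.63 and 334.9 in plate 3, so the CD5 tests below are also given without plate 2. Nothing states that the plates came from separate animals, so p-values measure the spread between these sums of cells, which may be technical.

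Chromosome M gave 15.97%, 12.86% and 14.91% of all UMIs in plates 1, 2 and 3. The share of single cells ran from 10.07% to 22.58% between the 5th and 95th percentiles in plate 1, from 7.917% to 17.42% in plate 2 and from 9.775% to 20.23% in plate 3. Cells under 10% numbered 9, 29 and 18, those over 20% numbered 23, 4 and 26, and 2 cells of all 697 exceeded 30%. Plate 2 was thus lowest both in the sum and in single cells, and it was also the plate with the deepest cells.

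Nearly all of this signal came from the mRNAs and rRNAs. The 13 mRNA rows held 380847 UMIs, or 81.27% of the chromosome M total, with 84.53%, 75.32% and 83.52% in plates 1, 2 and 3. The 2 rRNA rows held 87395 UMIs, or 18.65%, with 15.41%, 24.57% and 16.4%. The mRNA part was therefore smallest and the rRNA part largest in plate 2.

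The 21 tRNA rows, which encode the adaptors of mitochondrial translation and carry no poly(A) tail as mature RNAs, summed to 390 UMIs, or 0.0832% of the chromosome M total. They ranged from 2 to 82 UMIs over all cells with a median of 10, and 11 of them had at most 10. The 14 tRNAs on the plus strand held 340 UMIs and the 7 on the minus strand 50. The highest rows were mt-Tt, the tRNA for threonine just downstream of mtCytb, at 10, 42 and 30 UMIs in plates 1, 2 and 3, and mt-Tw, the tRNA for tryptophan just downstream of mtNd2, at 12, 31 and 30. At these counts a tRNA row cannot be compared between cells.

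Among the mRNAs the ATP synthase subunit mtAtp6 was the most abundant row of chromosome M in plates 1 and 3 but not in plate 2. It stood at 36760, 16270 and 32190 CPM in plates 1, 2 and 3, with a mean of 28410 ± 10750 (SD, n = 3 plates). Its partner on the same mRNA, mtAtp8, a small subunit of the same enzyme, stood at 2072, 266.8 and 1654 CPM (1331 ± 945, SD). Plate 2 was low for both rows and furthest from the other plates for mtAtp8.

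The complex IV (cytochrome c oxidase) core subunits differed in which plate was highest. The level of mtCo1, its catalytic subunit, was 17770, 18520 and 16290 CPM (17520 ± 1136, SD, n = 3). For mtCo2, which takes electrons from cytochrome c, it was 15890, 10710 and 14750 CPM (13780 ± 2724, SD). For mtCo3, the remaining core subunit, it was 5915, 7934 and 5908 CPM (6586 ± 1167, SD). Plate 2 was thus highest for mtCo1 and mtCo3 and lowest for mtCo2. The complex III subunit mtCytb, cytochrome b, stood at 17070, 11510 and 15520 CPM (14700 ± 2868, SD), again lowest in plate 2.

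The 7 complex I (NADH dehydrogenase) mRNAs covered the widest range of levels. The membrane arm subunit mtNd4 was at 13210, 10060 and 12960 CPM (12080 ± 1752, SD, n = 3), and mtNd2 at 9898, 7244 and 8962 CPM (8701 ± 1346, SD). The subunit mtNd1, next to the quinone site, was at 6776, 8200 and 7888 CPM (7621 ± 748.5, SD). Of these 3 rows, mtNd1 was the one not lowest in plate 2. The membrane arm subunit mtNd5 was at 5912, 3540 and 4516 CPM (4656 ± 1192, SD), mtNd3 at 2581, 1836 and 2922 CPM (2446 ± 555.4, SD) and mtNd4l at 1158, 758.8 and 975.9 CPM (mean 964.3). All 3 were lowest in plate 2. The single mRNA of the other strand, mtNd6, was at 22.03, 12.57 and 30.62 CPM (21.74 ± 9.029, SD), with 73 UMIs in all and at least 1 UMI in 8.465% of cells.

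The large rRNA, mt-Rnr2, was at 18270, 25020 and 18660 CPM (20650 ± 3792, SD, n = 3 plates), and the small rRNA, mt-Rnr1, at 6337, 6567 and 5797 CPM (6234 ± 394.9, SD). Plate 2 was highest for both, by more in mt-Rnr2. The ribosome holds 1 copy of each rRNA, while the UMI ratio of mt-Rnr2 to mt-Rnr1 lay between 2.66 and 4.188 in the 9 sums of cells by plate and CD5 class. Nuclear copies of mitochondrial DNA could share reads with any of these rows, and how the authors treated such reads was not given either.

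**Figure D1:**
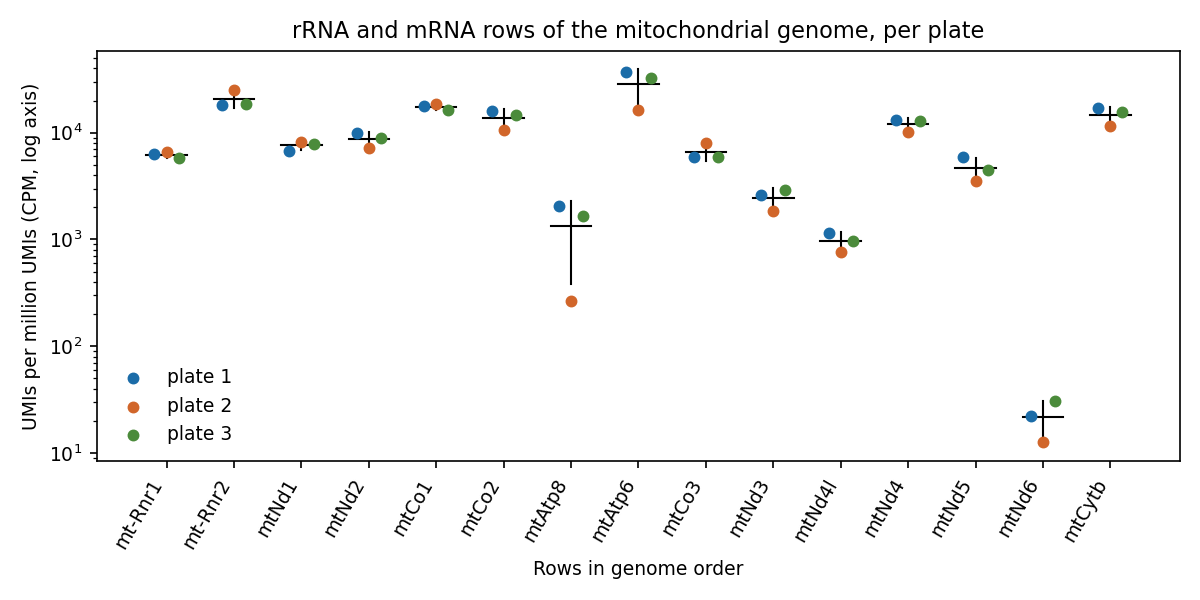
Level (CPM, log axis) of the 2 rRNA and 13 mRNA rows of chromosome M in genome order, with 1 point per plate and the mean ± SD over the 3 plates in black. Plate 2 lies far below the other plates for mtAtp8 (266.8 CPM) and mtAtp6 (16270 CPM), and mtNd6 lies at 12.57 to 30.62 CPM, below every other row shown.

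Divided by annotated length, most neighbouring levels overlapped between plates. On the scale of CPM per kilobase mtAtp6 led with 41710 ± 15790 (SD, n = 3 plates), and its lowest plate, at 23900, was above the highest plate of the next row, mtCo2, at 23240. The row mtCo2 (20150 ± 3982) overlapped with mt-Rnr2 (13050 ± 2397), and mt-Rnr2, mtCytb (12850 ± 2507) and mtCo1 (11340 ± 735.1) overlapped with each other. The plates of mtCo1, at 10540 or more, lay above those of mtNd4 (8764 ± 1271), at 9587 or less. The rows around them did overlap, since mtCytb went down to 10060 in plate 2 and mtCo3 up to 10120 in the same plate.

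Next in this order, mtNd4, mtCo3 (8400 ± 1489), mtNd2 (8383 ± 1296), mtNd1 (7964 ± 782.1) and mtNd3 (7030 ± 1596) had overlapping plates on the same CPM per kilobase scale. The next rows were mt-Rnr1 at 6528 ± 413.6 and mtAtp8 at 6524 ± 4632, the latter ranging from 1308 to 10160. The lowest rows of the plus strand, mtNd4l (3247 ± 673.5) and mtNd5 (2552 ± 653.7), overlapped with each other. The minus-strand mtNd6, at 41.89 ± 17.4, was far below all of them. Without this division, the CPM values count the molecules that the poly-T primer captured, not all molecules present. How well each row was captured, by a tail or at an A-rich stretch within the transcript, was not tested. The order of the rows by CPM and the parts held by mRNA and rRNA are therefore those of captured molecules. The order by CPM per kilobase is not, because a captured molecule gives no more tags when its transcript is longer. Division by length lowers long rows and raises short ones, so that order does not rank the rows by transcript abundance. For rows on a shared mRNA, such as mtAtp8 and mtNd4l, the length was that of the reading frame.

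Plate 2 differed from the other plates in how its mitochondrial UMIs were spread over the rows, not just in how much mitochondrial RNA it held. Its level divided by the mean of plates 1 and 3 was 0.143 for mtAtp8, 0.472 for mtAtp6 and 0.478 for mtNd6, and between 0.667 and 0.769 for mtNd3, mtNd5, mtCo2, mtCytb, mtNd4l, mtNd2 and mtNd4. It was 1.08 for mt-Rnr1, 1.09 for mtCo1, 1.12 for mtNd1, 1.34 for mtCo3 and 1.36 for mt-Rnr2. Outside mtNd6, the same rows differed between plates 1 and 3 by ratios of 0.859 to 1.309, so mtAtp8 and mtAtp6 in plate 2 were outside that spread by far.

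Neighbouring genes thus went apart. The rows mtAtp6 and mtCo3 overlap by 1 base on chromosome M, at chrM:7927-8607 and chrM:8607-9390, and plate 2 was lower for the first and higher for the second. The share of mtAtp6 among the mitochondrial mRNA UMIs was 27.22%, 16.8% and 25.84% in plates 1, 2 and 3, and that of mtCo3 4.381%, 8.19% and 4.743%.

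The difference held in every CD5 class of plate 2. Over the 9 sums by plate and class, the mtAtp6 share of mRNA was 16.39% to 17.6% in plate 2 and 25.6% to 27.42% in the others, and the mtAtp8 share 0.2205% to 0.3195% against 1.3% to 1.639%. The mtCo3 share was 8.008% to 8.3% against 4.188% to 4.783%, and the mtCo1 share 18.57% to 19.46% against 12.97% to 13.44%. None of these ranges overlapped. The UMIs of mtAtp8 per 100 of mtAtp6, rows of a shared mRNA, were 1.303 to 1.815 in plate 2 and 4.998 to 6.109 in the others. Plate 2 thus also differed between rows of the same mRNA, which is not a difference in which mRNAs were present. Where tags fell along that mRNA was not analysed. By single cells, 198 of the 201 cells of plate 2 (98.51%) had an mtAtp6 share under 26.78%, the median of the cells of plates 1 and 3 together.

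Summed by enzyme, the ATP synthase rows took 28.76%, 17.08% and 27.17% of mitochondrial mRNA UMIs in plates 1, 2 and 3. The complex IV rows took 29.31%, 38.36% and 29.66%, the 6 complex I rows of the plus strand 29.28%, 32.66% and 30.69%, and the complex III row 12.64%, 11.89% and 12.46%. The ATP synthase part was lower and the complex IV part higher in plate 2, while complexes I and III differed less between plates. With 1 library per plate, a difference between the cells of plate 2 and a difference between its library or sequencing and the others cannot be told apart.

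**Figure D2:**
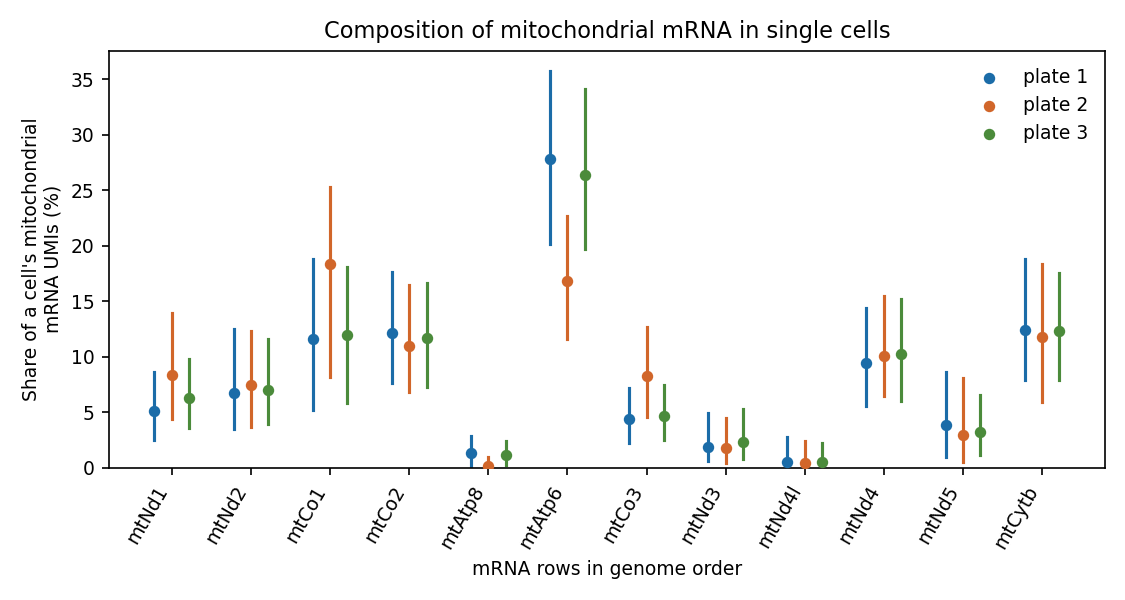
Share of a cell's mitochondrial mRNA UMIs (%) taken by each of 12 mRNA rows of the plus strand in genome order, with the median over cells as a point and the 5th to 95th percentiles of cells as a line, for each plate. The median mtAtp6 share was 27.81%, 16.88% and 26.36% in plates 1, 2 and 3, and the median mtCo3 share 4.407%, 8.31% and 4.688%.

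The balance of rRNA and mRNA varied both between plates and between the cells of a plate. In sums of all cells the ratio of rRNA to mRNA UMIs was 0.182, 0.326 and 0.196 in plates 1, 2 and 3 (0.235 ± 0.0793, SD, n = 3), with plate 2 the highest. In single cells the rRNA part of mitochondrial UMIs ran from 4.84% to 28.3% between the 5th and 95th percentiles in plate 1, from 10.2% to 42.09% in plate 2 and from 6.015% to 32.77% in plate 3. More rRNA than mRNA UMIs were found in 1 of 172, 2 of 201 and 4 of 324 cells, with the highest ratio at 1.914 in plate 3.

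Relative to all UMIs of the cell, rRNA was the more uneven of the 2 classes. Its share had a median of 2.125%, 2.727% and 1.88% in plates 1, 2 and 3, a coefficient of variation of 0.693, 0.527 and 0.855, and a maximum of 13.51%, 9.365% and 20.52%. The mRNA share had medians of 13.85%, 9.679% and 12.81% and coefficients of variation of 0.222, 0.274 and 0.219. The 5% of cells richest in rRNA held 13.41%, 12.82% and 18.79% of all rRNA UMIs while holding 4.642%, 5.374% and 5.477% of all UMIs, so they were not set apart by depth.

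Part of this spread is counting noise, which weighs more on rarer RNAs. As a measure that allows for it, the Pearson chi-square of distinct UMIs over cells per degree of freedom is 1 when counting noise alone acts. It was 38.32, 41.6 and 69.09 for rRNA among all UMIs and 27.79, 34.53 and 27.8 for mRNA among all UMIs in plates 1, 2 and 3. Within the rRNAs, mt-Rnr2 among rRNA UMIs gave 4.79, 4.17 and 4.43. The measure grows with the number of UMIs counted over, which is smaller for rRNA UMIs than for all UMIs. These values therefore cannot show whether the 2 rRNAs kept their proportion more closely than rRNA kept its proportion to the cell. Values for abundant and rare classes are not on equal terms either.

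Within the mRNAs the measure ran from a mean over plates of 1.96 for mtAtp8 to 6.82 for mtCo1, each counted among mitochondrial mRNA UMIs. The complex I subunit mtNd5 was second at 7.79, 6.24 and 4.62 in plates 1, 2 and 3, and mtAtp6, the most abundant mRNA, had 4.58, 3.98 and 3.81. For 69 cytosolic ribosomal protein genes, each counted among the UMIs of that family, the median was 1.7, 2.07 and 1.59.

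Co-variation was measured over cells within each plate after each was thinned to 2118 UMIs, the 20% quantile of depth, which kept 124, 176 and 257 cells and left out 140. Cells of a plate share their library, so correlations are a description. Among the 12 mRNA rows with at least 1 UMI per thinned cell, all but mtNd6, the median Spearman correlation over 66 pairs was 0.228, 0.209 and 0.188 in plates 1, 2 and 3. The 2 rRNAs went together at 0.662, 0.678 and 0.734. Pairs of an rRNA and an mRNA had medians of 0.071, 0.075 and 0.057 over 24 pairs. The mRNAs and the rRNAs therefore each varied together, and the classes varied almost separately: the summed mRNAs against the summed rRNAs gave 0.065, 0.125 and 0.058.

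The scale changes the size of these correlations. Per UMI outside chromosome M in unthinned cells, the mean over plates of the median was 0.257 for mRNA pairs and 0.118 for rRNA with mRNA, against 0.208 and 0.068 at fixed depth. Per spike-in UMI, which keeps differences in total RNA between cells, they were 0.708 and 0.571. The mRNA pairs were above the mixed pairs on each of these 3 scales.

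Some mRNAs were closer than others. The highest pairs were mtAtp6 with mtCo2 at 0.507, 0.377 and 0.388 in plates 1, 2 and 3, mtAtp6 with mtCo3 at 0.393, 0.401 and 0.399, and mtCo3 with mtNd1 at 0.451, 0.388 and 0.268. The lowest single value among mRNA pairs was -0.075. Over the 66 pairs the mean correlation rose with the mean count of the rarer member (Spearman 0.757) and hardly with the distance between the genes (0.053), so it went with abundance and hardly with position on the chromosome.

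The rarest of the 12 mRNAs, mtNd4l, mtAtp8, mtNd3 and mtNd5, were in plates 2 and 3 the least tied to the others, while in plate 1 mtCo1, at 0.152, was below all of these but mtNd4l. The median correlation with the other mRNAs was 0.169, 0.081 and 0.095 for mtNd5, at 9.2 UMIs per thinned cell. It was 0.208, 0.082 and 0.178 for mtNd3, at 5.56 UMIs, and 0.227, 0.06 and 0.092 for mtAtp8, at 2.78 UMIs. With the summed rRNAs mtNd5 reached 0.156, 0.284 and 0.166. The row mtNd4l, at 2.02 UMIs per thinned cell, had 0.101, 0.083 and 0.064 with the other mRNAs and 0.168, 0.23 and 0.106 with the rRNA sum. By contrast mtAtp6, the closest in plates 1 and 3 but not in plate 2, had 0.331, 0.265 and 0.331 with the other mRNAs and -0.053, 0.153 and 0.003 with the rRNA sum.

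For scale, pairs of cytosolic ribosomal protein mRNAs had medians of 0.137, 0.13 and 0.137 over 2346 pairs, and mitochondrial mRNAs with those mRNAs 0.032, 0.016 and 0.033. These genes were not matched in abundance to the mitochondrial mRNAs, whose correlations rose with abundance, so the sizes are not on equal terms.

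**Figure D3:**
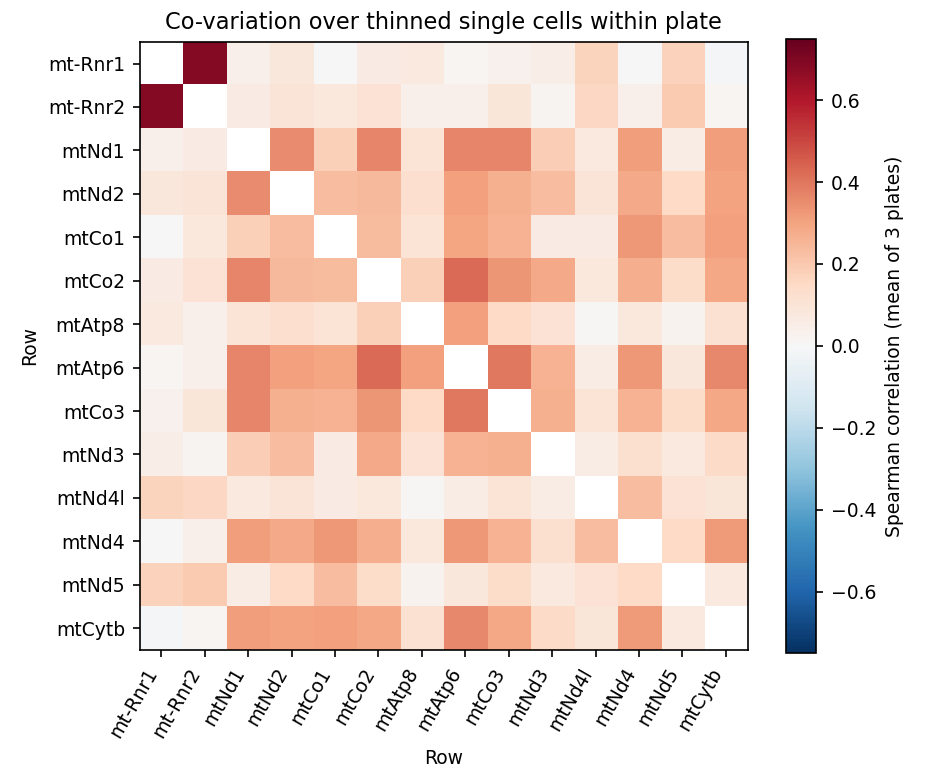
Spearman correlation (colour, mean of the 3 plates) between each pair of 14 rows of chromosome M over cells thinned to 2118 UMIs, in genome order on both axes. The mt-Rnr1 and mt-Rnr2 pair (0.691) is the darkest, the pairs among mRNAs form a block of middle values, and the band of rRNA with mRNA pairs is pale except towards mtNd4l and mtNd5.

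Outside chromosome M, the 2 classes had different companions. Of 386 rows ranked by the lowest of their 3 plate correlations, the 10 most like the mRNA sum were all cytosolic ribosomal protein genes, led by Rps12 at 0.179, 0.222 and 0.154, and followed by Rpl17, Rps3a1, Rps24, Rpl21, Rps25, Rps18, Rps26, Rps28 and Rps23. These are weak correlations, and the median of all ranked rows was -0.009, -0.013 and 0.0. The share of this family among the ranked rows was not counted, and 69 of its genes averaged at least 1 UMI per thinned cell. The ranking was not matched for abundance, so 10 of 10 is not a measure of a particular tie. At the other end came Rn45s, the row for the precursor of the cytosolic rRNAs, at -0.299, -0.257 and -0.259. Its UMIs were not split into precursor and mature rRNA. The same end held Mir5109 at -0.186, -0.165 and -0.184, and Malat1, a nuclear noncoding RNA, at -0.222, -0.104 and -0.134. The remaining 7 of the lowest 10 were Add1, H3f3b, Arl6ip1, Cd37, Kbtbd11, Mll5 and Lcp1. Rn45s took a median of 1.457%, 2.618% and 1.306% of a cell's UMIs in plates 1, 2 and 3 and up to 50.79% in a single cell. In cells thinned to a fixed total a large share of 1 row lowers the others, and the part of this in the correlations was not tested.

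The rRNA sum, ranked in the same way after its values were seen, had Rn45s at the top instead. The correlation was 0.449, 0.539 and 0.474 in plates 1, 2 and 3, and next came Mir5109 (0.318, 0.363 and 0.373), Malat1 (0.302, 0.427 and 0.393) and Kcnq1ot1, another nuclear noncoding RNA (0.253, 0.298 and 0.353). The lowest included the MHC class I gene H2-K1 (-0.18, -0.27 and -0.193) and the ribosomal protein genes Rpl32, Rps16 and Rpl9. With the sum of cytosolic ribosomal protein UMIs, the rRNA sum gave -0.366, -0.355 and -0.158 and the mRNA sum 0.112, 0.209 and 0.188. The 2 products of the same genome thus went in opposite directions with Rn45s and with the ribosomal protein sum in each of the 3 plates.

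Single rows split along the same line, apart from mtNd5 and mtNd4l. Against Rn45s, mt-Rnr1 gave 0.426, 0.539 and 0.452 and mt-Rnr2 0.41, 0.495 and 0.452. The 10 other mRNA rows were negative in 3 of 3 plates, with means from -0.059 for mtAtp8 to -0.252 for mtAtp6. The row mtNd5 was positive in all 3 (0.103, 0.158 and 0.182), and mtNd4l was near 0 in plate 1 (-0.003, 0.166 and 0.081).

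**Figure D4:**
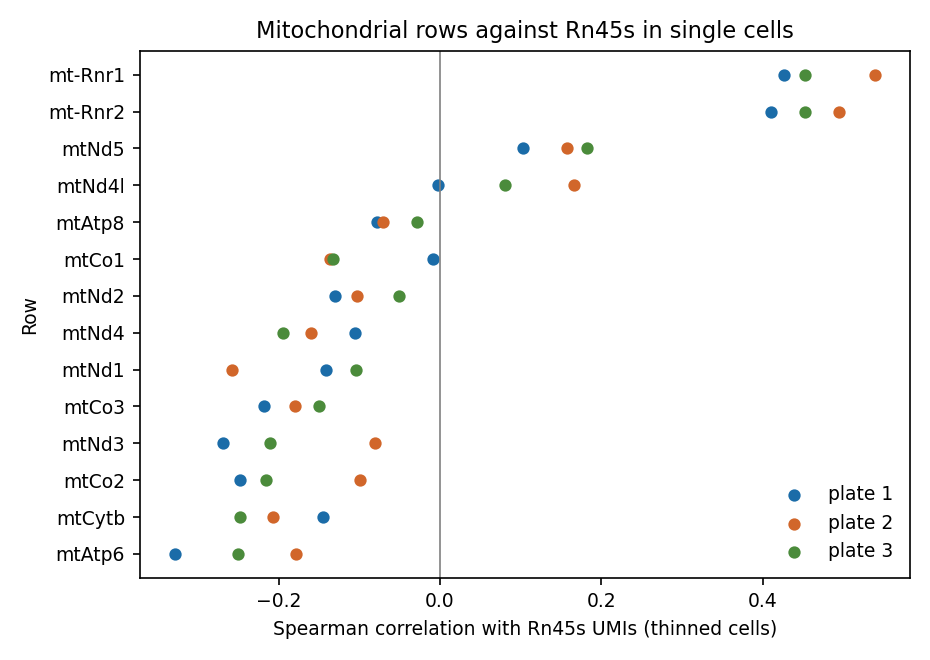
Spearman correlation of each of 14 rows of chromosome M with Rn45s UMIs over thinned cells, with 1 point per plate. The 2 rRNAs lie between 0.41 and 0.539, mtNd5 between 0.103 and 0.182, and 10 mRNAs below 0 in every plate.

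Between the Low and the High CD5 class no row of chromosome M passed the test. With counts summed by plate and class and the plate as a block, edgeR's quasi-likelihood test covered 4813 genes and called 9 of them at an adjusted p of 0.05, which is 0.187% of the genes tested. Of the 36 rows of chromosome M, 15 had enough counts to be tested, and 0 were called, with 1 at an unadjusted p under 0.05. Over all genes tested, 296 had an unadjusted p under 0.05. DESeq2 called 0 of the 15, with 1 at an unadjusted p under 0.05, and 0 of all 4813 genes, with 147. The log2 fold changes, High minus Low, were positive in 10 of 15 with a median of 0.01, against 0.00 for all genes tested. Without plate 2, 0 were called and 3 had an unadjusted p under 0.05, in a fit that called 20 of 5113 genes, or 0.391%, with 325 at an unadjusted p under 0.05.

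The row with the smallest p was mtNd5. On the CPM scale of the test, with library sizes adjusted by TMM, its level was 4858 CPM in the Low, 6671 in the Middle and 5913 in the High class of plate 1, then 3143, 3669 and 3745 in plate 2 and 4306, 4430 and 4729 in plate 3. The Low class was the lowest in each plate. Across plates the classes overlapped, since every class of plate 2 lay below every class of plate 3. The log2 fold change was 0.22 (SE 0.07, 95% interval 0.08 to 0.36, higher in 3 of 3 plates at 0.28, 0.25 and 0.14), with an unadjusted p of 0.00305 and an adjusted p of 0.458 in edgeR's test over all genes. It therefore did not pass. Without plate 2 the log2 fold change was 0.19 (SE 0.0701, adjusted p = 0.483 by edgeR). Across the alternative settings the log2 fold change lay between 0.176 and 0.266 and the adjusted p between 0.245 and 0.998.

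With all 3 plates the other mRNAs and the rRNAs lay close to 0. For these 13 rows the log2 fold change ran from -0.03 to 0.07 with standard errors of 0.041 to 0.128, and no bound of a 95% interval passed -0.26 or 0.33. None of them was higher in High in 3 of 3 plates, 8 were higher in 2 and 5 in 1. Without plate 2 the 11 mRNAs among them ran from -0.14 to 0.101, with adjusted p of 0.946 to 0.997 by edgeR. The most abundant row, mtAtp6, was at 35680, 17550 and 31570 CPM in the Low class of plates 1, 2 and 3 and at 35710, 16470 and 32670 CPM in the High class, with a log2 fold change of -0.01 (SE 0.041). The tRNA mt-Tt, the one tRNA row tested, had 0.49 (SE 0.709), which these counts cannot resolve.

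The rRNAs differed between plates in direction. For mt-Rnr1 the level was 5655, 7291 and 5561 CPM in the Low and 7217, 5721 and 5929 CPM in the High class of plates 1, 2 and 3, or log2 fold changes of 0.35, -0.35 and 0.09. For mt-Rnr2 it was 16460, 26570 and 18710 CPM in Low and 19190, 23970 and 19440 CPM in High, or 0.22, -0.15 and 0.06. Plate 2, in which Cd5 mRNA hardly differed between the classes, was the one plate where both were lower in High. With all 3 plates the fit gave 0.03 (SE 0.074) for mt-Rnr1 and 0.04 (SE 0.049) for mt-Rnr2. Without plate 2 mt-Rnr1 was at 0.21 (SE 0.0636), with an unadjusted p of 0.00189 and an adjusted p of 0.219 by edgeR, and had the smallest p of the chromosome M rows. Without plate 2 mt-Rnr2 was at 0.12 (SE 0.0459), with an unadjusted p of 0.00955 and an adjusted p of 0.514 by edgeR. Neither passed the test.

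**Figure D5:**
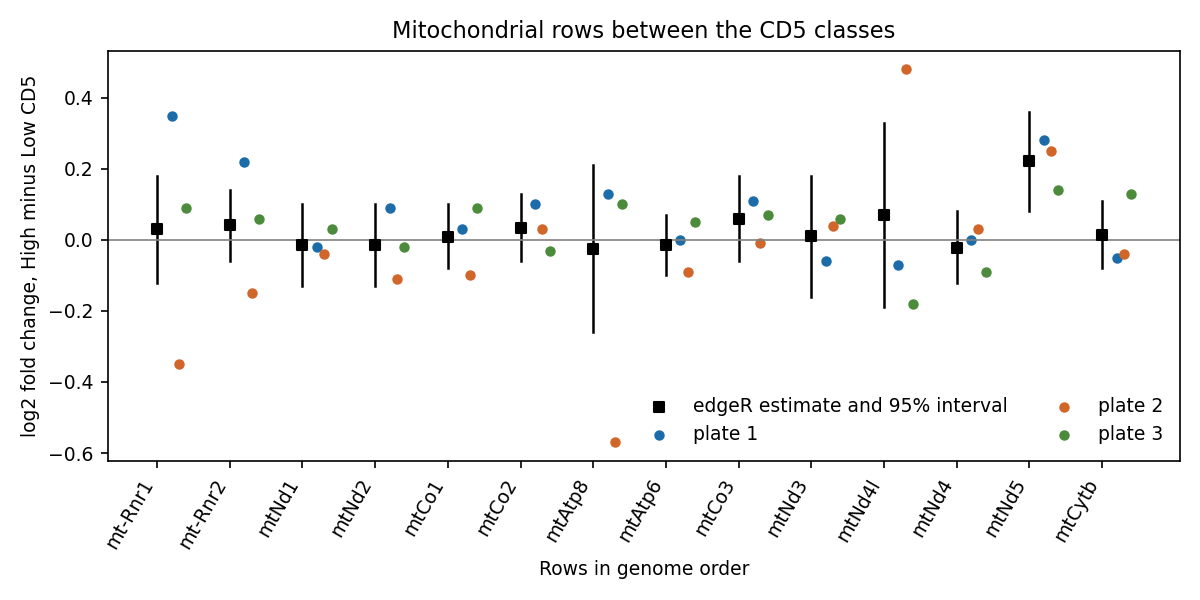
Log2 fold change between the High and Low CD5 classes for 14 rows of chromosome M, with edgeR's estimate and 95% interval as black squares and lines and the value within each plate as coloured points. The interval of mtNd5 (0.08 to 0.36) is the one that leaves out 0, though its adjusted p was 0.458, and mt-Rnr1 has plates on both sides of 0 (0.35, -0.35 and 0.09).

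A trend over CD5 gave the same count. In each plate the cells were ranked by CD5 fluorescence and summed in 4 bins of equal size. Of 5019 genes 6 were called by edgeR, or 0.12%, and of 16 rows of chromosome M 0 were, with 1 at an unadjusted p under 0.05 against 242 of all genes. DESeq2 called 0 of the 16, with 1 at an unadjusted p under 0.05, and 3 of all 5019 genes, or 0.0598%. The slope of mtNd5 was 0.09 per doubling of CD5 on the log2 scale (SE 0.032, 95% interval 0.03 to 0.16, adjusted p = 0.831 by edgeR). From the lowest to the highest bin mtNd5 went through 4769, 6534, 6517 and 6005 CPM in plate 1, 3205, 3474, 3978 and 3780 in plate 2 and 4271, 4444, 4409 and 4630 in plate 3. The lowest bin was the lowest value in each plate, with no steady rise above it. The slopes of the other 13 mRNA and rRNA rows tested at usable counts ran from -0.02 to 0.06, with interval bounds within -0.11 and 0.17. Without plate 2, 0 rows of chromosome M were called in a fit that called 14 of 5016 genes, or 0.279%. The 3 rows then at an unadjusted p under 0.05, against 279 of all genes, were mt-Rnr1 with a slope of 0.12 (SE 0.0392, adjusted p = 0.357 by edgeR), mt-Rnr2 with 0.07 (SE 0.0311, adjusted p = 0.748) and mtNd5 with 0.09 (SE 0.0391, adjusted p = 0.782). The 11 other mRNAs ran from -0.015 to 0.047.

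The balance of rRNA and mRNA had no common direction over CD5. The ratio of rRNA to mRNA UMIs was 0.17, 0.3396 and 0.2 in the Low, 0.1803, 0.331 and 0.1916 in the Middle and 0.1984, 0.305 and 0.2037 in the High class of plates 1, 2 and 3. The log2 ratio of High to Low was 0.223, -0.155 and 0.026, with a mean of 0.03 ± 0.189 (SD, n = 3; two-sided exact sign-flip permutation p = 0.75, where 3 plates cannot give less than 0.25), and 0.125 without plate 2. Taken as the median over cells it was negative in each plate (-0.161, -0.041 and -0.116), so its sign depended on the summary.

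The share of chromosome M in summed UMIs differed between High and Low by a mean log2 ratio of 0.01 ± 0.028 (SD, n = 3; two-sided exact sign-flip permutation p = 0.75), and by 0.022 without plate 2. As the median over cells it was higher in High in 3 of 3 plates (0.149, 0.11 and 0.095), with a mean of 0.118 ± 0.0277 (SD, n = 3; two-sided exact sign-flip permutation p = 0.25, the smallest that 3 plates can give), so its size depended on the summary. In thinned single cells the correlation of CD5 fluorescence with the mRNA sum was 0.041, -0.017 and -0.036 in plates 1, 2 and 3, and with the rRNA sum -0.036, -0.018 and 0.102.

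The nuclear genes that maintain and express the mitochondrial genome were followed in the same fits, and 0 of the members tested were called in either direction, with all plates or without plate 2. Of 3 tested transcription genes, 2 were positive with a median log2 fold change of 0.09, among them the mitochondrial RNA polymerase Polrmt at 0.51 (SE 0.66) and the DNA packaging factor Tfam at 0.09 (SE 0.4). Without plate 2 they were at 0.11 (SE 0.73) and 0.89 (SE 0.49). Of 5 tested genes for replication and upkeep of the DNA, 1 was positive with a median of -0.10, and Polg, the catalytic subunit of the DNA polymerase, was at -0.22 (SE 0.62), and at -0.49 (SE 0.85) without plate 2. These genes are at low counts, and the standard errors leave wide room for change.

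With all 3 plates, 296 of the 4813 genes tested between the classes had an unadjusted p under 0.05. For RNA processing and decay, 11 genes were tested, 6 were positive, the median was 0.09 and 3 had an unadjusted p under 0.05. They were Hsd17b10, a subunit of the RNase P that frees the tRNAs, at 1.01 (SE 0.44, adjusted p = 0.773 by edgeR), Lrpprc, which stabilises mitochondrial mRNAs, at -0.83 (SE 0.39, adjusted p = 0.797) and Ptcd3, a protein of the small mitoribosomal subunit, at -1.01 (SE 0.48, adjusted p = 0.797). Their slopes over CD5 had the same signs, at 0.41, -0.30 and -0.40, from the same cells. Without plate 2 they were at 1.18 (SE 0.6), -0.52 (SE 0.49) and -0.92 (SE 0.62), and 0 of the 12 genes then tested had an unadjusted p under 0.05.

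No tested partner of the mitochondrial products passed either. Of 76 tested nuclear genes of the respiratory chain, 37 were positive with a median of -0.02 and 1 at an unadjusted p under 0.05, the complex IV subunit Ndufa4 at 0.66 (SE 0.27, adjusted p = 0.773 by edgeR). The complex II subunit Sdha was at -0.46 (SE 0.26) and the ATP synthase subunit Atp5b at -0.28 (SE 0.18). Of 42 tested genes of the mitochondrial ribosome, 20 were positive with a median of -0.04, with Mrpl15 at -0.87 (SE 0.48) and Mrpl13 at -0.88 (SE 0.49). Of 72 tested cytosolic ribosomal protein genes, 23 were positive with a median of -0.02 and 3 at an unadjusted p under 0.05, Rpl4 (-0.17, SE 0.07), Rpl13a (-0.17, SE 0.08) and Rps12 (-0.16, SE 0.08). Without plate 2 the medians of these 3 lists were -0.03, -0.01 and -0.01, with 35 of 76, 21 of 42 and 34 of 72 positive. Over the trend, each of the 6 nuclear lists again had 0 genes called, with all plates or without plate 2.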

How the data were processed

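SORT-seq libraries of 3 plates of index-sorted naive CD4 T cells were analysed from the deposited gene table. Per the submitters' processing notes, the aligner was BWA (its version was not given in the sources used here) and the build mm10. The deposited values are expected counts: 99.96% of those above 0 lay within 0.005 of the molecules expected behind a whole number of distinct UMIs among 4096 possible ones. The CD5 values are a fluorescence signal the authors deposited with their class of each cell. The deposited primer sheet was not used.

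Counts were summed by plate and class (9 sums) or by plate and bin of CD5 (12 sums), rounded to whole numbers, and tested over all genes with edgeR 4.0.16 (quasi-likelihood, TMM, filterByExpr, plate as a block, two-sided, Benjamini-Hochberg) in R 4.3.3. DESeq2 1.42.0 was an alternative. The class fit had 4 residual and 38.2 prior degrees of freedom, so the spread of a gene was drawn towards that of others. The fit was tested on simulated data for the class comparison with 4813 genes, where it recovered 78 of 100 genes changed by 1 on the log2 scale and 96 of 100 changed by 1.5, with 8 false calls. The changed genes were drawn from the more abundant ones, every gene had the same spread beyond counting noise, and plates did not differ. Recovery at low counts, of smaller changes or with differing plates was therefore not measured. CPM of whole plates, and of Cd5, scale the UMIs of a row to the UMIs of all mouse genes, while CPM of classes and bins in the tests use library sizes adjusted by TMM. Shares and ratios were compared over plates by exact sign-flip tests. Correlations and thinning (Python 3.11.15, scipy 1.17.1) used 1 seeded draw. Over 198 abundant genes, the classes of a plate deviated together at correlations of 0.528 to 0.845, against at most 0.315 between plates, so classes are paired by plate.

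Every row of chromosome M was accounted for, and the mRNAs, the rRNAs and rows of at least 1000 UMIs got a value in each plate. Up to 4 tested members of smallest p per nuclear list, and the 10 rows most and least like the mRNA sum, were eligible to be named. The members and lists were chosen with earlier results of these data known.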

Additional observations from a re-analysis of the deposited data

How the results depend on the processing

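The count of chromosome M rows called was 0 in each of the 13 alternative settings of both CD5 comparisons. Without the plate as a replicate block it was 0 as well, while the genes called over the whole table went from 9 to 0 between classes and from 6 to 0 over the trend. Leaving out plate 1 or plate 3 also gave 0 genes over the whole table, and leaving out plate 2 gave 20 and 14. Of 191 alternative log2 fold changes of single rows, 164 kept their direction and 27 turned, none beyond 0.14 in size, and none of the 191 passed the threshold. With library sizes from spike-ins, the fold changes of mt-Rnr1 (-0.012), mt-Rnr2 (-0.003), mtCo1 (-0.036), mtCo2 (-0.009), mtCytb (-0.028) and mtNd3 (-0.036) turned negative. In thinned cells mtCo1 (-0.013), mtCo2 (-0.034), mtCytb (-0.027) and mtNd3 (-0.028) turned negative and mtAtp8 (0.054) positive. With no filter on low counts mtCo1 was at -0.007, mtCytb at -2.3e-05 and mtNd3 at -0.005. Without the replicate block mtAtp6 was at 0.00077 and mtAtp8 at 0.062. Leaving out 1 plate at a time gave -0.118 to 0.207 for mt-Rnr1, -0.037 to 0.123 for mt-Rnr2, -0.048 to 0.013 for mtAtp6, -0.128 to 0.101 for mtAtp8, -0.037 to 0.05 for mtCo1, -0.045 to 0.052 for mtCytb, -0.056 to 0.021 for mtNd2, -0.018 to 0.056 for mtNd3, -0.062 to 0.011 for mtNd4 and -0.14 to 0.205 for mtNd4l. The cause was not tested. The 6 nuclear lists without plate 2, an alternative chosen after seeing the data, had 0 genes called in both comparisons. The share of chromosome M was 0.118 as a median over cells, turned to -0.012 in thinned cells and ran from -0.006 to 0.022 with a plate left out. The log2 ratio of rRNA to mRNA turned to -0.106 as a median over cells and ran from -0.064 to 0.125. The median correlation among mRNAs was 0.257 per UMI outside chromosome M, 0.708 per spike-in UMI and 0.267 among the 10 rows with at least 5 UMIs, and that of rRNA with mRNA was 0.118 and 0.571 per UMI outside chromosome M and per spike-in UMI. Depth limits the tRNAs and mtNd6, whose counts resolve no difference between classes, and 3 plates cannot give an exact p under 0.25.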
